A study of Mus musculus with 12 samples.

Results

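Transcripts of 44 genes of the cell cycle were followed in the interscapular brown adipose tissue (iBAT) of mice on 2 diets and at 2 temperatures. The genes were chosen by their symbols from the 61210 rows of the gene table and were sorted by role into 21 mitotic genes, 11 S phase genes, 9 drivers of G1 and of the entry into S phase, and 3 inhibitors of cyclin-dependent kinases (CDKs). All 44 were in the table, and 43 were among the 16737 genes that passed the filter on low counts. The mitotic kinase gene Plk1 did not pass, with 0 to 50 reads in a library. Tyms, the thymidylate synthase gene, was higher at 4 °C on both diets. Further S phase genes were higher at 4 °C on HFD, where 1 library was the highest for each of them. The main edgeR fit, of all 12 libraries after this filter, called no mitotic gene in any comparison. Some alternative fits did call mitotic genes.

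The tissue came from wild type C57BL/6N mice of 20 weeks, and no group carried a transgene or a deletion. All mice ate chow up to 8 weeks of age. The mice labelled NCD stayed on the control diet, and those labelled HFD then received a high-fat diet for 12 weeks. One set of each diet was kept at room temperature, written as 22 °C in the table, and another was kept at 4 °C for 24 h, which gave 4 groups of 3 libraries: NCD 22 °C, NCD 4 °C, HFD 22 °C and HFD 4 °C. The series text calls the depot inguinal brown fat and the study's methods call it interscapular. Total RNA of the whole depot was sequenced, so that a smaller number of cells of one type and less RNA per cell cannot be told apart. Whether each library came from a single mouse was not stated in the labels, and p-values measure the spread between these libraries.

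Cells that divide make the proteins of each phase in turn. D-type cyclins with CDK4 and CDK6 start the passage through G1 by phosphorylating the retinoblastoma proteins, which frees E2F factors. E2F factors then raise genes for DNA replication, among them the MCM helicase subunits and the enzymes that make deoxynucleotides. Genes of mitosis follow under the MuvB complex with B-MYB and FOXM1, which acts at promoters through a short element called CHR, often beside CCAAT boxes bound by NF-Y. CDK inhibitors such as p21 (Cdkn1a) and p27 (Cdkn1b) hold these kinases back. Mature brown adipocytes seldom divide, and in cold-exposed brown fat the dividing cells are known to include precursor cells and endothelial cells.

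The promoters were read for these elements, since the mitotic and the S phase genes are known to be driven through different ones. RefSeq (GRCm38.p6) gave a start site window for 36 of the 44 genes. Ccne2, Ccnd2, Kif20a, Ccna2, Ccnd1, Mcm4, Aurkb and Tpx2 had none. The 250 bases upstream of the start were searched on both strands for the CHR (TTTGAA), the CCAAT box (CCAAT) and an E2F site (TTCGCGC or TTGGCGC or TTCCCGC or TTGCCGC), and matches on opposite strands may overlap. The sequences below belong to the mitotic genes Top2a (chr11:99024190-99024439, minus strand) and Cdk1 (chr10:69352913-69353162, minus strand), the topoisomerase and the kinase of mitosis, with the CHR in capitals.
Top2a: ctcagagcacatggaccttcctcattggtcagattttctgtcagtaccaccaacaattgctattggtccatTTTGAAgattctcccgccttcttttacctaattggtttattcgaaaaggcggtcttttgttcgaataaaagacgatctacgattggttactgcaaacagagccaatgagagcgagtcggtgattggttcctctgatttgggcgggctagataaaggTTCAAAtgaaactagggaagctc
Cdk1: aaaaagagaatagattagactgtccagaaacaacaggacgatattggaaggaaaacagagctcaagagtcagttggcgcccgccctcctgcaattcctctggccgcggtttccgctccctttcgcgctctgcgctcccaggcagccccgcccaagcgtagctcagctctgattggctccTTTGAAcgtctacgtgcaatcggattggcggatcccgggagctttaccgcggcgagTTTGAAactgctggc
Of the S phase genes called in a comparison below, Mcm2 and Mcm3 held 0 E2F matches and are not shown. Mcm5 (chr8:75109259-75109508, plus strand), Mcm6 (chr1:128359706-128359955, minus strand) and Rrm1 (chr7:102441445-102441694, plus strand), which were also called, are shown with the E2F letters in capitals.
Mcm5: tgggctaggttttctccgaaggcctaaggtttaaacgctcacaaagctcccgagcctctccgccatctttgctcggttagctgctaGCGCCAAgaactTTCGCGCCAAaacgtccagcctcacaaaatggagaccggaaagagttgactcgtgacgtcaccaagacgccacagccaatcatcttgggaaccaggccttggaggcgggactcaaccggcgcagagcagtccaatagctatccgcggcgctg
Mcm6: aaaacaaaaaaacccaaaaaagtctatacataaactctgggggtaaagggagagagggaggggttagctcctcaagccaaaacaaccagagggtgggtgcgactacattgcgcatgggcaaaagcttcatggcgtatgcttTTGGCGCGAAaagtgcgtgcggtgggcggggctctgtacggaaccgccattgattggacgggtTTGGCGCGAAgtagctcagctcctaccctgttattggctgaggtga
Rrm1: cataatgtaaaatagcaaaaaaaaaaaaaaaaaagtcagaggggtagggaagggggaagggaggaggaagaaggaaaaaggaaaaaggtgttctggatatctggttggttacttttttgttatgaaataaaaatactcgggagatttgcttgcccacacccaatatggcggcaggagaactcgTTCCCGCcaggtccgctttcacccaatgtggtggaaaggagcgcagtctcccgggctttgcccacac
The window of Tyms (chr5:30073626-30073875, minus strand), the gene with the steadiest difference, held none of these letters and is given without capitals.
Tyms: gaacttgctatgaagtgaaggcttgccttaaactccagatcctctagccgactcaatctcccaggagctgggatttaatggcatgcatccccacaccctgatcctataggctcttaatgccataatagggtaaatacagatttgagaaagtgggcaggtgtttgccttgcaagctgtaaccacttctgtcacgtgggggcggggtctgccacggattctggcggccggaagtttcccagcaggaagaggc
The CHR was found in 8 of 17 mitotic genes with a window (47.1%), in 1 of 10 S phase genes (10%) and in 18.3% of all 27025 genes with a window. CCAAT was found in 15 of 17 mitotic genes (88.2%), in 8 of 10 S phase genes (80%) and in 37.5% of all genes. The E2F letters were found in 5 of 10 S phase genes (50%), in 3 of 17 mitotic genes (17.6%) and in 9.01% of all genes. None of the 6 G1 drivers and 3 CDK inhibitors with a window held the CHR. These matches describe letters and not bound sites.

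The libraries held 15136861 to 46740702 counts. Replicates 1 and 2 of each group were labelled batch 1 (15136861 to 21026727 counts) and replicate 3 batch 2 (34067515 to 46740702 counts), so that each batch held all 4 groups. Markers of brown adipocytes were present in every library and Ucp1, the uncoupling protein, was called higher at 4 °C on both diets (log2 fold change 1.96 on NCD and 0.92 on HFD, adjusted p = 0.000274 and 0.00656, edgeR). The summed level of 8 skeletal muscle markers ran from 521 to 15943 CPM (read counts scaled to TMM library size) over the libraries and differed widely within groups.

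One library stood apart in the genes described here. In HFD 4 °C replicate 3, all 20 tested mitotic genes and all 11 S phase genes had their highest level of the 12 libraries, whereas 8.53% of all tested genes had theirs there. The 20 mitotic genes stood at a median of 4.54 times (1.87 to 6.88) their median in the other 11 libraries, and the S phase genes at 2.09 times (1.22 to 5.95). Of the G1 drivers 3 of 9 were highest in this library, with a median ratio of 1.30, and of the CDK inhibitors 0 of 3. Of the 10 macrophage markers 9 were highest there, with a median ratio of 2.198. Their summed level was 380 CPM in that library, against 234 and 170 CPM in HFD 4 °C replicates 1 and 2 and 129 to 249 CPM in the other groups. Of the 5 marrow neutrophil markers Elane and Camp were at 0 in all libraries and Mpo in this one, and S100a8 and S100a9 stood at 1.98 and 2.01 times their median in the other libraries. The summed level of the lymphocyte markers was 18.2 CPM in this library and 8.55 to 19.4 CPM in the others. The summed level of the 7 endothelial markers was 1149 to 1367 CPM at HFD 4 °C, above the NCD groups (680.2 to 1040.2 CPM) and overlapping HFD 22 °C (929 to 1165 CPM), and 2 of them were highest in this library, with a median ratio of 1.25. The 8 stromal progenitor markers summed to 429 CPM here and to 328 to 447 CPM in the other libraries. Of them 1 was highest here, with a median ratio of 1.16. The skeletal muscle markers summed to 4869 CPM here and to 521 and 678 CPM in HFD 4 °C replicates 1 and 2, with a median ratio of 2.28 and 0 of 8 highest. The part of these cell types in the result was not tested. The other 3 libraries of batch 2 had summed mitotic levels of 43.6 (NCD 22 °C), 37.7 (NCD 4 °C) and 28.1 CPM (HFD 22 °C), within the 28.1 to 57.0 CPM of all libraries but this one.

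**Figure D1:**
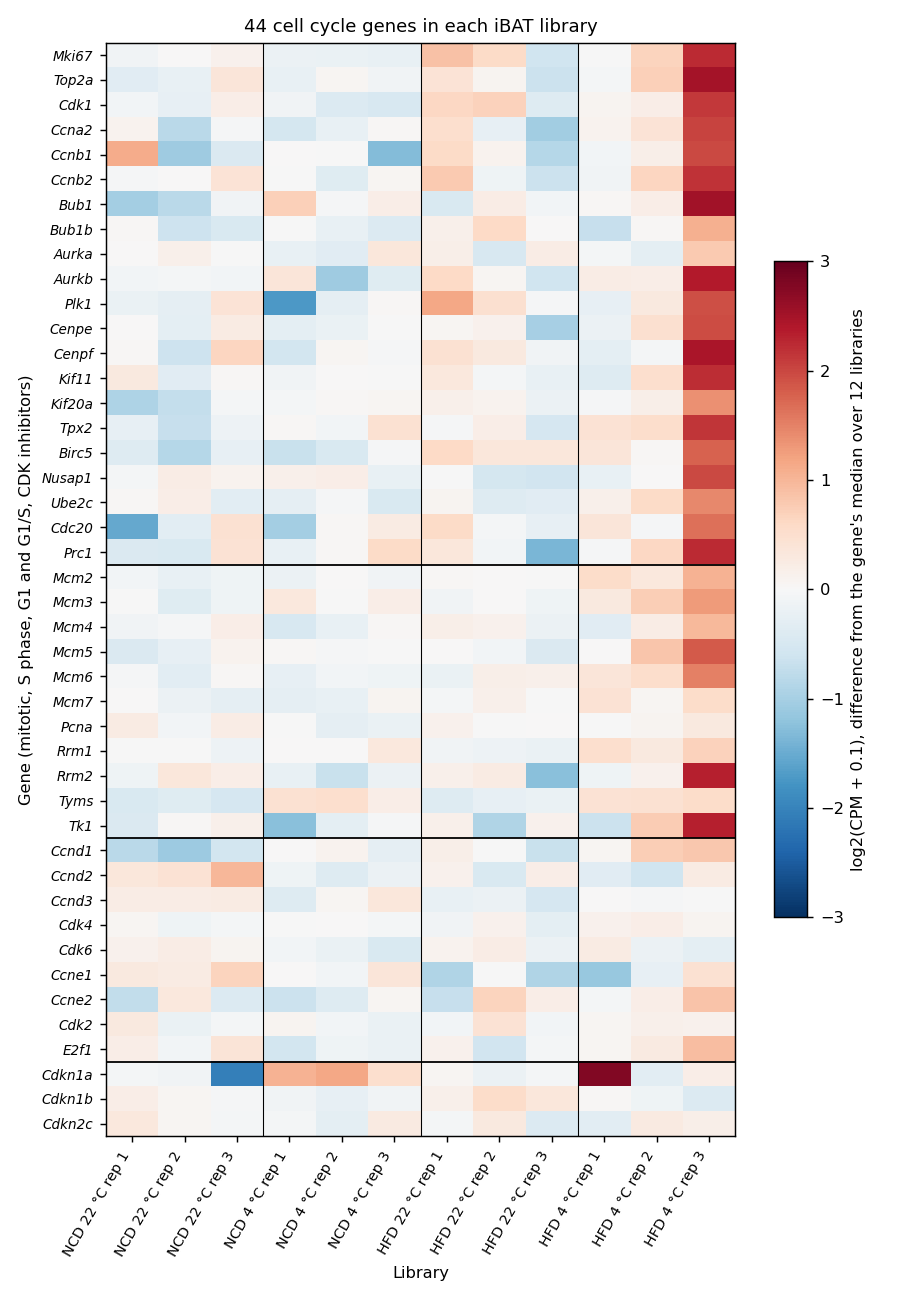
Level of each of the 44 genes (rows, by class) in each of the 12 libraries (columns, by group), as the difference of log2(CPM + 0.1) from the gene's median over the libraries. The mitotic and S phase rows are highest in HFD 4 °C replicate 3, with a median of 4.54 and 2.09 times the median of the other libraries, and Cdkn1a is highest in HFD 4 °C replicate 1.

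**Figure D2:**
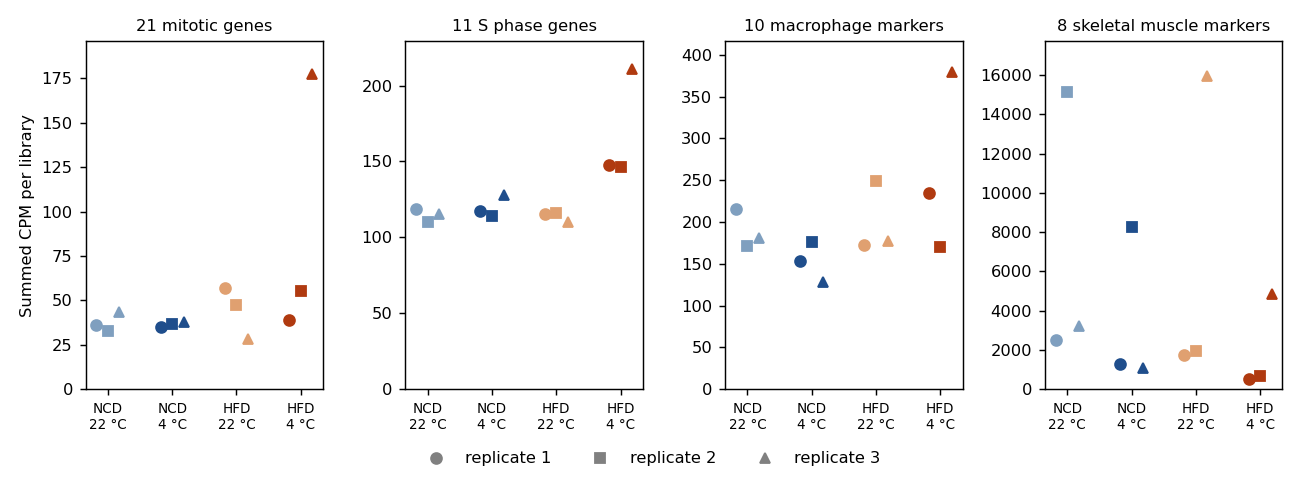
Summed CPM of 21 mitotic genes, 11 S phase genes, 10 macrophage markers and 8 skeletal muscle markers in each library, by group, with a symbol for each replicate number. HFD 4 °C replicate 3 is highest for the first 3 lists (177, 211 and 380 CPM), and the muscle markers run from 521 to 15943 CPM with overlap between the groups.

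The proliferation marker Mki67, an antigen of the chromosome surface in mitosis, was slightly lower at 4 °C on the control diet, without a call. It stood at 9.70, 10.5 and 11.5 CPM at NCD 22 °C and at 9.23, 9.06 and 8.995 CPM at NCD 4 °C, without overlap. The log2 fold change was -0.22 ± 0.50 (adjusted p = 0.861, edgeR). On HFD it stood at 19.4, 15.6 and 6.86 CPM at 22 °C and at 10.5, 16.6 and 50.3 CPM at 4 °C. The last value rests on 2159 reads, and the remaining HFD 4 °C libraries lay within the range of the HFD 22 °C libraries.

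Top2a encodes the topoisomerase that untangles replicated chromosomes. Its levels were 4.42, 4.82 and 7.37 CPM at NCD 22 °C, 4.82, 5.89 and 5.26 CPM at NCD 4 °C and 7.54, 5.96 and 3.56 CPM at HFD 22 °C. At HFD 4 °C they were 5.45, 9.38 and 32.2 CPM, with 121, 213 and 1380 reads. For cold on HFD the log2 fold change was 1.48 ± 0.54 (SE) with an adjusted p of 0.0993 (edgeR), and it was 0.40 ± 0.35 without HFD 4 °C replicate 3.

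Cdk1, the kinase that drives the entry into mitosis, was at 0.995, 0.872 and 1.22 CPM at NCD 22 °C and at 0.975, 0.765 and 0.734 CPM at NCD 4 °C. On HFD it was at 1.67, 1.78 and 0.791 CPM at 22 °C and at 1.13, 1.23 and 4.96 CPM at 4 °C. The groups on NCD overlapped, and on HFD only HFD 4 °C replicate 3 lay above the 22 °C libraries. Ccnb1, its B-type cyclin partner, was at 2.18, 0.407 and 0.686 CPM at NCD 22 °C and at 0.975, 0.942 and 0.331 CPM at NCD 4 °C. It was at 1.48, 1.05 and 0.480 CPM at HFD 22 °C and at 0.900, 1.101 and 4.08 CPM at HFD 4 °C. These are low counts of 7 to 35 reads in all libraries except HFD 4 °C replicate 3, which held 175.

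For cold on NCD, no mitotic gene was called by edgeR or DESeq2, and none had an unadjusted p under 0.05. Of all 16737 tested genes, 3670 had an unadjusted p under 0.05. A call needed a log2 fold change beyond 0.5 in either direction and an adjusted p under 0.05, and 3.72% of all tested genes were called higher and 2.55% lower in this comparison. The 20 mitotic genes had a median log2 fold change of -0.06 (-0.56 to 1.03), with 7 above 0 and 13 below, beside a median of -0.01 over all tested genes. For HFD at 22 °C, where 0.992% of all genes were called higher and 1.09% lower, again no mitotic gene was called by edgeR or DESeq2 and none had an unadjusted p under 0.05, with a median of 0.06 (-0.50 to 1.02).

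For cold on HFD, all 20 mitotic genes had a fold change above 0, with a median log2 value of 1.19 (0.05 to 1.69), beside -0.04 over all tested genes. In the main edgeR fit none was called and 9 had an unadjusted p under 0.05. In that fit 5.39% of all genes were called higher and 4.19% lower, and 4595 of 16737 had an unadjusted p under 0.05. DESeq2 called Top2a and Tpx2, a spindle assembly factor, beside 12.2% of all genes. Without a filter edgeR called these 2 as well, beside 4.31% of all genes. Without HFD 4 °C replicate 3 the median was 0.15, with 14 of 20 above 0, and 4.23% of all genes were called higher and 2.26% lower. For HFD at 4 °C (2.06% of all genes called higher, 2.69% lower), all 20 were above 0 as well, with a median of 1.29 (0.30 to 1.77). Of them 12 had an unadjusted p under 0.05 and none was called in the main edgeR fit. DESeq2 called Mki67 and Top2a, beside 7.89% of all genes. Without a filter edgeR called these 2 as well, beside 2.09% of all genes. Without HFD 4 °C replicate 3 the mitotic median was 0.37, with 15 of 20 above 0, and the calls over all genes were 0.938% higher and 0.961% lower. With all libraries, 3802 of all 16737 genes had an unadjusted p under 0.05 for HFD at 4 °C. Cold on HFD and HFD at 4 °C share the HFD 4 °C libraries, and so the same library enters both.

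**Figure D3:**
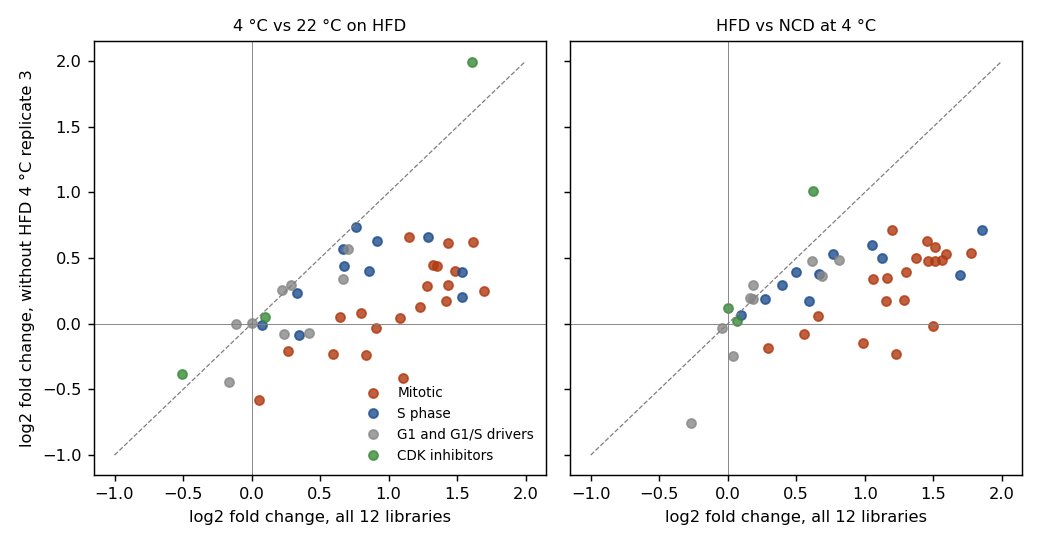
Log2 fold change of each tested member for cold on HFD (left) and HFD at 4 °C (right), fitted with all 12 libraries (x axis) and without HFD 4 °C replicate 3 (y axis), coloured by class, with the dashed line of equal values. The mitotic medians went from 1.19 to 0.15 and from 1.29 to 0.37, and the CDK inhibitor at the top is Cdkn1a, whose highest library is HFD 4 °C replicate 1.

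The other 16 tested mitotic genes encode kinases, cyclins, checkpoint proteins, motors and parts of the spindle. They had means of 0.287 to 2.02 CPM at NCD 22 °C and of 0.737 to 4.87 CPM at HFD 4 °C. The spread at HFD 4 °C was wide: for the microtubule bundler Prc1 the mean was 3.92 ± 3.36 CPM (SD, n = 3) and for the motor Kif11 4.36 ± 4.07 CPM, against 1.46 ± 0.602 and 1.89 ± 0.425 CPM at NCD 22 °C. Tpx2 was the mitotic gene with the smallest p for cold on HFD (log2 fold change 1.43 ± 0.45, adjusted p = 0.0639, edgeR). Its levels were 1.55, 1.83 and 1.07 CPM at HFD 22 °C and 2.16, 2.33 and 7.32 CPM at HFD 4 °C, without overlap, and without HFD 4 °C replicate 3 the value was 0.62. Ube2c, the ubiquitin-conjugating enzyme of the anaphase-promoting complex, was at 0.902, 0.627 and 0.649 CPM at HFD 22 °C and at 0.945, 1.32 and 2.47 CPM at HFD 4 °C, also without overlap. 

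Among the S phase genes, Tyms had the steadiest difference. It encodes thymidylate synthase, which makes the thymidine nucleotide for DNA, and lies at chr5:30058202-30073617 on the minus strand (GRCm38). It was at 6.22, 6.63 and 6.00 CPM at NCD 22 °C and at 11.7, 12.2 and 9.75 CPM at NCD 4 °C. On HFD it was at 6.51, 7.21 and 7.45 CPM at 22 °C and at 11.6, 11.8 and 12.5 CPM at 4 °C. All 6 cold libraries lay above all 6 libraries at 22 °C, and the diets overlapped at 4 °C.

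For cold the log2 fold change of Tyms was 0.83 ± 0.13 on NCD (adjusted p = 0.0041, edgeR) and 0.76 ± 0.13 on HFD (adjusted p = 0.00441), or 1.78-fold and 1.69-fold. The interaction was -0.07 (95% interval -0.47 to 0.32), so that a difference between the diets was not detected. Diet moved it by 0.17 (-0.11 to 0.45) at 22 °C and by 0.10 (-0.18 to 0.37) at 4 °C, neither of them called. In the test over the 4 groups, called at an adjusted p under 0.001, Tyms was the only member called (adjusted p = 0.000898, edgeR), and 2.55% of all tested genes were called. That call was lost in 11 of the 12 fits that left out a library and with the replicate numbers as a block. For both cold comparisons Tyms was called in each of the 12 such fits and within batch 1 alone.

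Rrm1, the large subunit of ribonucleotide reductase, was at 41.7, 42.0 and 38.1 CPM at NCD 22 °C and at 42.8, 42.2 and 52.5 CPM at NCD 4 °C. It was at 38.9, 38.0 and 36.9 CPM at HFD 22 °C and at 60.1, 51.9 and 68.5 CPM at HFD 4 °C. Every HFD 4 °C library lay above the HFD 22 °C libraries. Cold on HFD gave a log2 fold change of 0.67 ± 0.12 (adjusted p = 0.00642, edgeR), and 0.57 ± 0.12 (adjusted p = 0.0232) without HFD 4 °C replicate 3. Within batch 1 alone this call was lost. Rrm2, the subunit whose level sets the enzyme's activity in S phase, was at 1.22, 1.31 and 0.395 CPM at HFD 22 °C and at 0.990, 1.19 and 5.92 CPM at HFD 4 °C. On NCD it was at 0.995, 1.39 and 1.27 CPM at 22 °C and at 0.917, 0.647 and 0.947 CPM at 4 °C. The HFD groups thus overlapped but for HFD 4 °C replicate 3, and the log2 fold change for cold on HFD of 1.53 ± 0.65 (adjusted p = 0.156, edgeR) was 0.20 without it.

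The MCM genes encode the 6 subunits of the helicase that opens DNA at replication origins. Mcm2 was at 4.85, 4.42 and 4.75 CPM at NCD 22 °C and at 4.59, 5.18 and 4.83 CPM at NCD 4 °C. It was at 5.28, 5.18 and 5.17 CPM at HFD 22 °C and at 7.56, 6.47 and 10.8 CPM at HFD 4 °C. The last group lay above all others, and Mcm2 was called for cold on HFD (0.67 ± 0.18, adjusted p = 0.038, edgeR) and for HFD at 4 °C (0.77 ± 0.18, adjusted p = 0.0387).

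Mcm3 was at 5.35, 4.18 and 4.95 CPM at NCD 22 °C, at 6.82, 5.36 and 6.20 CPM at NCD 4 °C and at 5.02, 5.49 and 4.94 CPM at HFD 22 °C. At HFD 4 °C it was at 6.71, 9.11 and 13.3 CPM, above every HFD 22 °C library, and it was called for cold on HFD (0.92 ± 0.23, adjusted p = 0.0248, edgeR). Mcm5 was at 2.55, 2.91 and 3.72 CPM at NCD 22 °C, at 3.55, 3.35 and 3.46 CPM at NCD 4 °C and at 3.48, 3.29 and 2.54 CPM at HFD 22 °C. At HFD 4 °C it was at 3.51, 6.21 and 12.7 CPM, with its first replicate within the range of the NCD libraries. It was called for cold on HFD at 1.28 ± 0.38 (adjusted p = 0.0493, edgeR).

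Mcm6 was at 6.28, 5.23 and 6.71 CPM at NCD 22 °C and at 5.504, 6.12 and 5.97 CPM at NCD 4 °C. It was at 5.60, 7.37 and 7.201 CPM at HFD 22 °C and at 8.33, 9.38 and 18.7 CPM at HFD 4 °C. The HFD 4 °C libraries lay above the other groups, and Mcm6 was called for HFD at 4 °C (1.05 ± 0.27, adjusted p = 0.0483, edgeR) but not for cold on HFD (0.85 ± 0.27, adjusted p = 0.0645). Mcm4 and Mcm7 were not called in any comparison, with group means of 5.57 to 8.41 and of 11.2 to 15.9 CPM.

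Without HFD 4 °C replicate 3, none of these MCM calls was kept. Over the 12 fits that left out a library, the calls for cold on HFD were kept in 5 for Mcm2, 8 for Mcm3 and 1 for Mcm5, and those for HFD at 4 °C in 2 for Mcm2 and 2 for Mcm6. For cold on HFD the log2 values became 0.44 for Mcm2, 0.63 for Mcm3 and 0.66 for Mcm5, with adjusted p of 0.128, 0.0835 and 0.182 (edgeR). For HFD at 4 °C they became 0.53 for Mcm2 and 0.60 for Mcm6, with adjusted p of 0.119 and 0.12 (edgeR). With the replicate numbers as a block within each diet, Mcm6 was called for cold on HFD (0.79, adjusted p = 0.0378, edgeR) and Mcm5 was not (1.13, adjusted p = 0.0824), and 6.11% of all genes were called higher and 6.75% lower.

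Over the 11 S phase genes, 1 was called for cold on NCD (Tyms, higher), 5 for cold on HFD (Tyms, Rrm1, Mcm2, Mcm3 and Mcm5, all higher), 0 for HFD at 22 °C (also 0 by DESeq2 and 0 at an unadjusted p under 0.05) and 2 for HFD at 4 °C (Mcm2 and Mcm6, higher). Of all tested genes, 6.27%, 9.58%, 2.09% and 4.75% were called in this order. The median log2 fold changes of the S phase genes were 0.01, 0.76, 0.02 and 0.67. Without HFD 4 °C replicate 3 the median was 0.40 for cold on HFD, with 9 of 11 above 0, and 0.38 for HFD at 4 °C, with 11 of 11 above 0. The calls for cold on HFD were then 2, Rrm1 and Tyms, and those for HFD at 4 °C were 0 by edgeR, with 4 of all 43 tested members at an unadjusted p under 0.05. That fit called 6.49% and 1.9% of all genes in these comparisons. Its count of all genes at an unadjusted p under 0.05 is not given here. Pcna, the sliding clamp of DNA polymerases, stood at 31.4, 25.3 and 31.2 CPM at NCD 22 °C and at 26.5, 22.01 and 23.4 CPM at NCD 4 °C. It stood at 29.2, 26.6 and 26.8 CPM at HFD 22 °C and at 26.3, 28.0 and 32.5 CPM at HFD 4 °C. The groups overlapped and Pcna was not called in any comparison. The salvage enzyme gene Tk1 was at 0.585, 1.72 and 5.27 CPM at HFD 4 °C, against 0.344 to 1.095 CPM in the other groups.

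**Figure D4:**
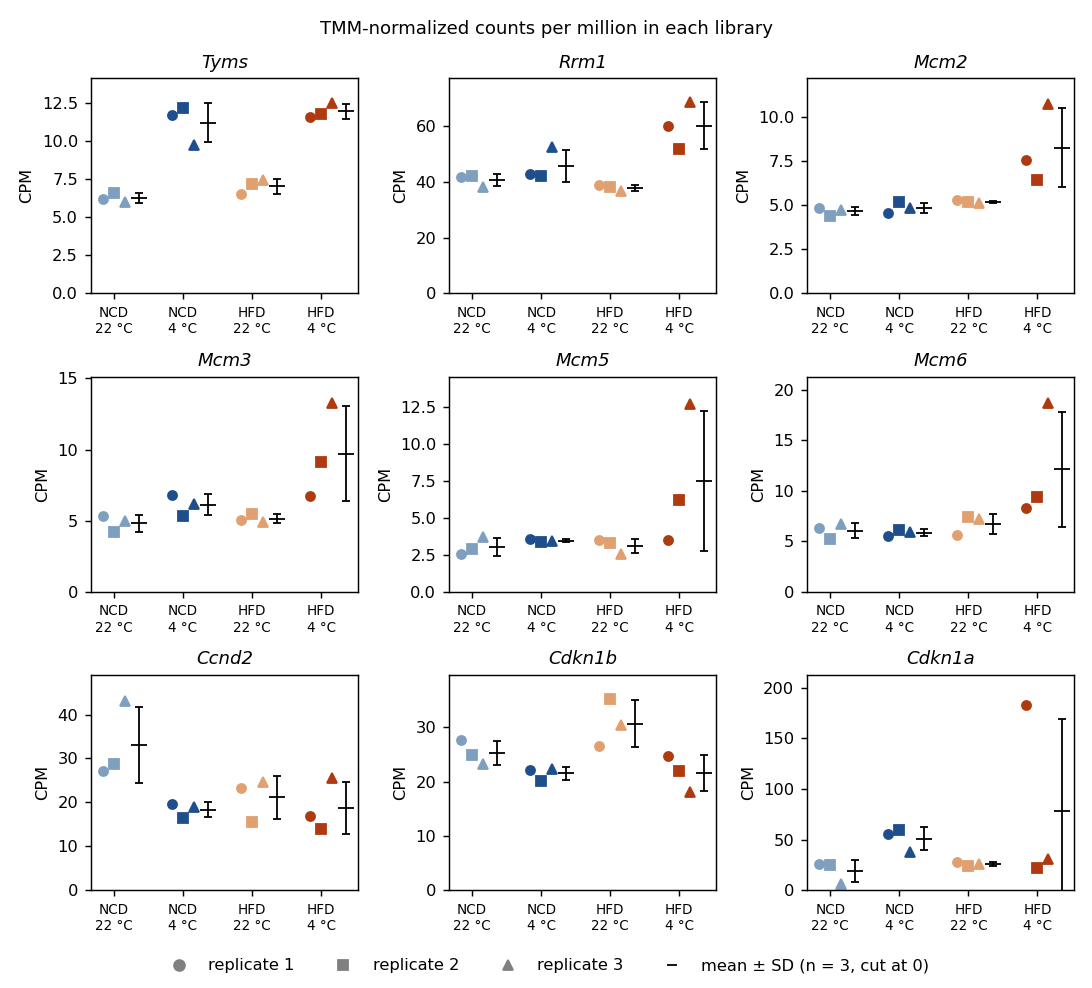
CPM of 9 genes in each library, by group (x axis), with a symbol for each replicate number and the mean ± SD of 3 libraries beside them. Tyms is higher in all cold libraries of both diets, Rrm1 and the Mcm genes are higher in HFD 4 °C libraries with replicate 3 on top, and Cdkn1a at HFD 4 °C rests on replicate 1 (183 CPM).

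**Figure D5:**
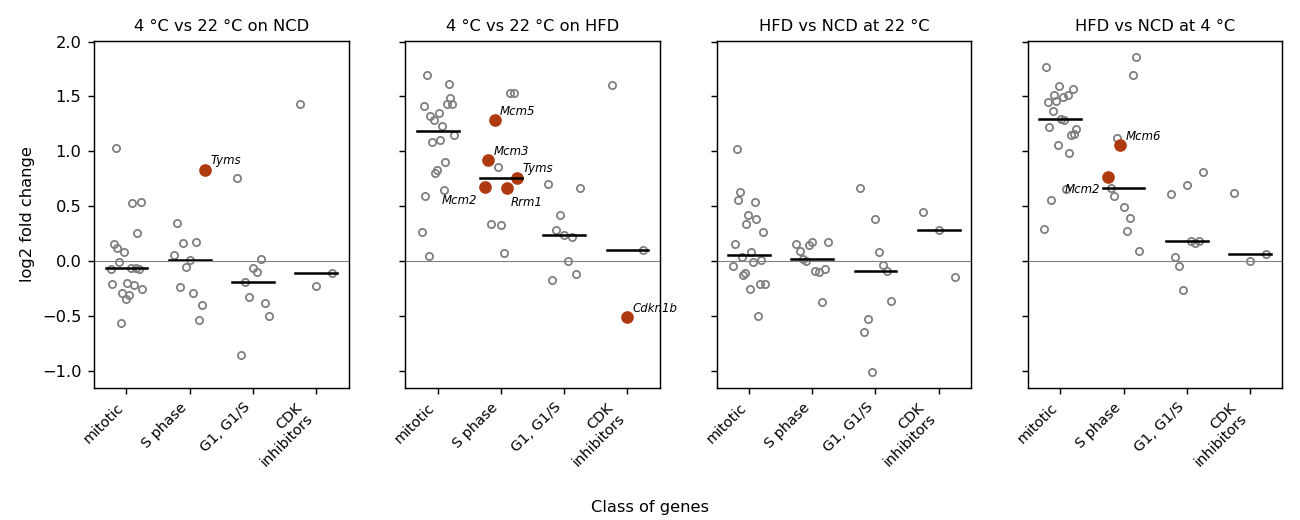
Log2 fold change of each tested member in the 4 comparisons, by class (x axis). Filled points are called by edgeR and lines are class medians, which for the mitotic genes are -0.06, 1.19, 0.06 and 1.29 from left to right with none of them called.

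The 9 drivers of G1 and of S phase entry are D-type and E-type cyclins, their kinases and E2f1. In the main edgeR fit none was called in any of the 4 comparisons. There 3, 1, 4 and 2 had an unadjusted p under 0.05 for cold on NCD and on HFD and for the diet at 22 °C and at 4 °C. Over all 16737 tested genes these counts were 3670, 4595, 3033 and 3802. DESeq2 called Ccnd1 and Ccnd2 for cold on NCD, Ccnd1 for cold on HFD and Ccnd3 for HFD at 22 °C. Of all tested genes it called 8.63%, 12.2% and 4.95% in these comparisons. The class medians were -0.19, 0.24, -0.09 and 0.18.

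The D-type cyclins differed among themselves. Ccnd1 was at 21.8, 17.9 and 25.8 CPM at NCD 22 °C and at 38.6, 41.1 and 31.5 CPM at NCD 4 °C, without overlap. It was at 43.4, 37.5 and 23.8 CPM at HFD 22 °C and at 39.6, 63.2 and 67.2 CPM at HFD 4 °C, with overlap. Its log2 fold changes for cold were 0.76 ± 0.25 on NCD and 0.70 ± 0.25 on HFD, with adjusted p of 0.0903 and 0.0886 (edgeR).

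Ccnd2 was at 27.2, 28.8 and 43.0 CPM at NCD 22 °C and at 19.7, 16.4 and 19.0 CPM at NCD 4 °C, again without overlap and in the other direction. On HFD it was at 23.2, 15.5 and 24.7 CPM at 22 °C and at 16.8, 14.0 and 25.5 CPM at 4 °C. Its log2 fold change for cold on NCD was -0.85 ± 0.25 (adjusted p = 0.0655, edgeR). With the replicate numbers as a block within each diet it was -0.83 and was called (adjusted p = 0.0154), where 4.48% of all genes were called higher and 4.38% lower. It was also called without HFD 4 °C replicate 3, a library that does not enter this contrast but enters the shared estimate of the spread.

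Ccnd3 was at 50.0, 50.2 and 51.0 CPM at NCD 22 °C and at 37.0, 38.2 and 30.0 CPM at HFD 22 °C, without overlap but not called. At 4 °C it was at 32.9, 44.96 and 54.2 CPM on NCD and at 43.5, 42.2 and 42.5 CPM on HFD. Cdk4, the partner kinase of the D-type cyclins, was at 37.3, 33.1 and 34.9 CPM at NCD 22 °C and at 36.1, 36.2 and 34.9 CPM at NCD 4 °C. It was at 33.8, 39.2 and 29.6 CPM at HFD 22 °C and at 39.7, 41.7 and 38.5 CPM at HFD 4 °C. Each HFD 4 °C library lay above all NCD libraries of both temperatures and the HFD groups overlapped, without a call. Cdk6 and Cdk2 had group means of 37.1 to 48.4 and of 12.2 to 13.9 CPM. The low E-type cyclins Ccne1 and Ccne2 and E2f1 had means of 1.05 to 3.39 CPM.

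Among the CDK inhibitors, Cdkn1b, which encodes p27, was called lower for cold on HFD. It was at 26.5, 35.1 and 30.4 CPM at HFD 22 °C and at 24.7, 22.01 and 18.02 CPM at HFD 4 °C, without overlap. On NCD it was at 27.7, 24.8 and 23.3 CPM at 22 °C and at 22.2, 20.2 and 22.3 CPM at 4 °C. The log2 fold change was -0.51 ± 0.14 on HFD (adjusted p = 0.0396, edgeR) and -0.23 ± 0.14 on NCD (adjusted p = 0.396), and the interaction of -0.28 (95% interval -0.72 to 0.15) was not called. The call on HFD was kept in 2 of the 12 fits that left out a library, with values of -0.59 to -0.38.

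Cdkn1a, which encodes p21, had the largest spread of the inhibitors. It was at 25.9, 24.8 and 6.37 CPM at NCD 22 °C and at 55.0, 59.7 and 38.0 CPM at NCD 4 °C, without overlap. It was at 27.8, 23.8 and 25.6 CPM at HFD 22 °C and at 183, 21.7 and 30.8 CPM at HFD 4 °C, where 4068 reads fell in replicate 1. Its log2 fold changes for cold were 1.43 ± 0.72 on NCD and 1.61 ± 0.71 on HFD, with adjusted p of 0.276 and 0.171 (edgeR). Without HFD 4 °C replicate 1 the value on HFD was 0.06. That library was also highest for 8 of the 21 tested p53 targets, beside 13.9% of all tested genes. Plk3 was among the 8 (63.3 CPM, against 6.03 and 12.0 CPM in replicates 2 and 3). The summed marrow neutrophil markers of that library were at 11.1 CPM against 0.116 to 1.497 CPM in the others. S100a8 (3.96 CPM) and S100a9 (7.16 CPM) were highest there, while the marrow genes Elane and Camp were at 0 in all libraries. The part of Plk3 or of these markers in the level of Cdkn1a was not tested. Cdkn2c, which encodes p18, was at 54.4, 45.5 and 42.2 CPM at NCD 22 °C and at 42.4, 35.7 and 53.2 CPM at NCD 4 °C. It was at 42.3, 53.5 and 32.98 CPM at HFD 22 °C and at 35.4, 53.1 and 49.3 CPM at HFD 4 °C, with all groups overlapping and no call.

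The interaction of diet and temperature asks whether cold acted differently on the 2 diets. No member was called by edgeR, where 0% of all tested genes were called, and 6 members had an unadjusted p under 0.05. Of all 16737 tested genes, 1091 had an unadjusted p under 0.05. DESeq2 called 0 members too. The median interaction of the mitotic genes was 1.31 on the log2 scale, from the fit that includes HFD 4 °C replicate 3. Without that library 1 member had an unadjusted p under 0.05 and 0 were called, beside 0% of all genes. The count of all genes at an unadjusted p under 0.05 in that fit is not given here.

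Other genes of the cell cycle were counted from lists of their roles. Of 43 tested further mitotic genes, such as Foxm1 and its targets, none was called in the main edgeR fit in any of the 4 comparisons. There 0, 9, 0 and 18 had an unadjusted p under 0.05 in the order above. DESeq2 called 1, for HFD at 4 °C, beside 7.89% of all genes. Over all 16737 tested genes, 3670, 4595, 3033 and 3802 had an unadjusted p under 0.05. The medians of the 43 genes were -0.05, 0.87, 0.08 and 1.09. Without HFD 4 °C replicate 3 the median for cold on HFD was -0.10 and that for HFD at 4 °C 0.19. In that library 39 of the 43 were highest.

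Of 45 tested further genes of DNA replication, 1 was called higher for cold on NCD, 3 higher for cold on HFD, none for HFD at 22 °C (4 at an unadjusted p under 0.05, 0 called by DESeq2) and 2 higher for HFD at 4 °C. Over all tested genes, 3.72%, 5.39%, 0.992% and 2.06% were called higher in these comparisons, and 6.27%, 9.58%, 2.09% and 4.75% in either direction. For HFD at 22 °C, 3033 of all 16737 tested genes had an unadjusted p under 0.05. Ung, the glycosylase that removes uracil from DNA, was at 3.92, 4.36 and 4.07 CPM at NCD 22 °C and at 10.95, 14.5 and 9.47 CPM at NCD 4 °C. It was at 2.38, 6.64 and 5.31 CPM at HFD 22 °C and at 12.6, 10.5 and 12.7 CPM at HFD 4 °C, so that cold and 22 °C libraries did not overlap on either diet. Its log2 fold changes for cold were 1.498 ± 0.30 (adjusted p = 0.0131, edgeR) and 1.31 ± 0.30 (adjusted p = 0.0168), called in 17 and 19 of 21 alternatives. The histone chaperone genes Chaf1b (1.44 ± 0.39) and Asf1b (0.99 ± 0.29) were higher for cold on HFD, and Chaf1b (1.61 ± 0.39) and the repair gene Brca2 (0.79 ± 0.20) for HFD at 4 °C. These 4 calls were lost without HFD 4 °C replicate 3, and all but that of Chaf1b for cold on HFD also without replicate 1. Without replicate 3 the values for cold on HFD were 0.99 for Chaf1b and 0.87 for Asf1b. Those for HFD at 4 °C were 1.16 for Chaf1b and 0.77 for Brca2. Over 21 alternatives the values for cold on HFD ran from 0.81 to 1.75 for Chaf1b (called in 13) and from 0.66 to 1.26 for Asf1b (called in 10). Those for HFD at 4 °C ran from 1.16 to 1.88 for Chaf1b and from 0.70 to 0.89 for Brca2 (each called in 7).

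Of 18 tested genes of the retinoblastoma, E2F and MuvB group and further inhibitors, the repressor E2f7 was higher for cold on NCD (1.24 ± 0.29, adjusted p = 0.0257, edgeR), E2f5 lower for HFD at 22 °C (-0.76 ± 0.16, adjusted p = 0.0405) and Rbl1 higher for HFD at 4 °C (1.03 ± 0.25, adjusted p = 0.0408). E2f7 was called in 15, E2f5 in 7 and Rbl1 in 9 of 21 alternatives. The call of Rbl1 was lost without HFD 4 °C replicate 3 (0.72) and also without replicate 1 (1.20). None of the 18 was called for cold on HFD by edgeR or DESeq2. Of them 4 had an unadjusted p under 0.05, beside 4595 of all 16737 tested genes. Of 21 tested p53 targets, Tigar, a fructose bisphosphatase, was higher for cold on both diets (0.64 ± 0.12 and 0.73 ± 0.12, adjusted p = 0.00866 and 0.00322, edgeR). Ei24 was higher for cold on NCD (0.60 ± 0.09, adjusted p = 0.00361, edgeR), Plk3 for cold on HFD (2.88 ± 0.75, adjusted p = 0.0309) and Sesn2 for HFD at 4 °C (1.00 ± 0.26, adjusted p = 0.049), and Phlda3 was lower for HFD at 4 °C (-0.96 ± 0.21, adjusted p = 0.0302). For the p53 targets these were 2 of 21 called for cold on NCD, beside 6.27% of all tested genes, 2 for cold on HFD, beside 9.58%, and 2 for HFD at 4 °C, beside 4.75%. The call of Plk3, kept in 15 of 21 alternatives, was lost without HFD 4 °C replicate 1, where the value was 1.34. The calls of Sesn2 (0.68 to 1.19, called in 6 of 21 alternatives) and Phlda3 (-1.13 to -0.77, called in 13) were lost without HFD 4 °C replicate 3 and also without replicate 1. Of 11 tested mitogen-induced genes such as Myc and Fos none was called by edgeR, with 1, 1, 1 and 3 at an unadjusted p under 0.05. DESeq2 called 0, 0, 1 and 2, beside 8.63%, 12.2%, 4.95% and 7.89% of all tested genes. Over all 16737 tested genes, 3670, 4595, 3033 and 3802 had an unadjusted p under 0.05 in edgeR. Of 5 tested replication-dependent histone genes, Hist1h2bq was called higher for cold on NCD (2.47 ± 0.60, adjusted p = 0.0314, edgeR), and reads of near-identical histone genes can be shared between copies.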

How the data were processed

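Total RNA of iBAT was measured in 12 libraries, 3 a group, grouped by their labels. The authors used cutadapt for trimming and salmon for quantification, with transcripts of GENCODE M22 and RNAcentral 5 on GRCm38, and deposited counts per gene as whole numbers, not normalized; use of strand is not given in the sources used here. Counts were tested in edgeR 4.0.16 (R 4.3.3) with filterByExpr (minimum count 10), TMM and a quasi-likelihood fit of the 4 group means over all libraries. Adjusted p is Benjamini-Hochberg over all genes tested, and CPM are TMM-normalized. Scripts were tested on simulated data. Coordinates of genes are from GENCODE M21.

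Values in every library are given for called members and for 14 members always, the others as ranges. From the further lists up to 3 called genes a comparison are named. The members and lists were chosen with earlier results of these data known. Tpx2, Ube2c and Tk1 and the libraries left out by name were singled out after their values were seen.

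Alternatives were DESeq2 1.42.0, its size factors, no filter, a filter on the mean count (10), batch in the model, batch 1 alone, replicate blocks, no minimum fold change, the 6 libraries of a comparison alone and each library left out. Libraries of equal number deviated together in the cold comparisons (correlations 0.219, 0.456 and 0.281 on NCD and 0.155, 0.217 and 0.386 on HFD, all over 0.1), so that they count as pairs there. In the HFD comparisons they did not. That pairing comes from these correlations, since labels give only the shared batch. Intervals and p-values do not cover errors of the counting step. Jun, Jund and Ier2 were not analysed here, and a result of the further replication genes is not reported here.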

Additional observations from a re-analysis of the deposited data

How the results depend on the processing

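Members called for cold on NCD numbered 1, and 2 without a filter, with batch as a term and with the replicate block over 4 groups or within diet, and 3 with DESeq2 and with 6 libraries only. For cold on HFD 6 were called, 10 with DESeq2, 8 without a filter, 1 in batch 1 alone (416 of all genes, against 1603) and 2 with 6 libraries only. The 8 included the mitotic genes Top2a and Tpx2, where 4.31% of all genes were called. For HFD at 22 °C 0 were called and 1 with DESeq2. For HFD at 4 °C 2 were called, 5 with DESeq2, 3 without a filter, and 0 in batch 1 alone, with 6 libraries only and with the replicate block within temperature. The 3 included the mitotic genes Mki67 and Top2a, where 2.09% of all genes were called. In the test over 4 groups 1 was called, 3 with DESeq2 and 2 without a filter, and 0 with DESeq2's size factors, batch as a term, batch 1 alone and the replicate block. The replicate block changed no other call of a named member than those given for Ccnd2, Mcm5, Mcm6, Tyms over 4 groups and, within temperature, Mcm2 and Mcm6. Of all genes, DESeq2 called 8.63% for cold on NCD (edgeR 6.27%) and 12.2% for cold on HFD (9.58%). For diet it called 4.95% at 22 °C (2.09%) and 7.89% at 4 °C (4.75%). Over all genes, the 4-group test gave 427 calls and 2625 with DESeq2, and the interaction 0 and 64.

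Leaving out 1 library at a time gave 1 to 2 members called for cold on NCD, 2 to 10 for cold on HFD, 0 to 1 for HFD at 22 °C, 0 to 3 for HFD at 4 °C, 0 for the interaction and 0 to 1 over 4 groups. Of all genes, these fits called 2.83% to 6.51% for cold on NCD and 5.85% to 9.61% for cold on HFD. For the diet they called 0.674% to 2.12% at 22 °C and 1.38% to 5.72% at 4 °C. The interaction had 0% to 0.127% and the test over 4 groups 0.608% to 1.49%. For cold on HFD the count of members was 3 without NCD 22 °C replicate 2 or 3 or HFD 22 °C replicate 1, and 2 without HFD 22 °C replicate 2 or 3 or HFD 4 °C replicate 3. It was 10 without HFD 4 °C replicate 1, where 5.85% of all genes were called. These 10 included the mitotic genes Kif11, Top2a, Tpx2 and Ube2c. Without HFD 4 °C replicate 2 it was 5, Tpx2 among them, and 9.25% of all genes were called. For HFD at 4 °C it was 0 without any NCD library, HFD 22 °C replicate 1 or 2 or HFD 4 °C replicate 3, and 1 without HFD 22 °C replicate 3. The log2 fold change of Mki67 for cold on HFD (0.90) turned to -0.36 in batch 1 alone and ran from -0.030 to 1.31 over the fits that left out a library, lowest without HFD 4 °C replicate 3, and that of Rrm2 (1.53) to -0.21 in batch 1 alone. Of the other values of single genes, 399 kept their direction and their side of the threshold, 75 lost the call and 27 gained it. Counts under about 50 reads in a library limit most mitotic genes. The causes of these shifts were not tested.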
